A study of Mus musculus with 6 samples.

Results

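The accessory subunits of voltage-gated calcium channels were examined in gastrocnemius, the large calf muscle, together with Lrtm2, a gene that lies inside one of them. The set holds 8 of the 35491 named entries of the tables: the alpha2delta genes Cacna2d1, Cacna2d2, Cacna2d3 and Cacna2d4, the beta gene Cacnb1, the gamma genes Cacng1 and Cacng6, and Lrtm2. It was selected on the measured difference between Ogg1Tg and Control muscle, in which Cacna2d4 and Lrtm2 were among the lowest genes, and was filled up with the subunits of the same channel family. The difference between the groups is therefore given for these 8 genes as a description, with no p, and where a count of called members is given, it supports nothing. The Ogg1Tg mice carried human OGG1-1a, a DNA repair enzyme, fused to a signal that sends it into mitochondria and driven by a CMV/AG promoter. The Control mice were C57BL/6J and did not carry it. There were 3 mice in each group. All 6 were males of C57BL/6J background aged 20 weeks, kept on a chow diet without treatment. The CMV/AG promoter is not restricted to muscle, and the labels name neither the number of transgenic lines nor the litters.

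A voltage-gated calcium channel is built around a pore-forming alpha1 subunit. The alpha2delta subunit sits on the outside of the membrane and raises the amount of channel there, the beta subunit binds the pore from inside the cell, and the gamma subunit spans the membrane. In skeletal muscle the channel formed by Cacna1s, Cacna2d1, Cacnb1 and Cacng1 is the voltage sensor that opens the calcium store when a fibre is excited. Cacna2d4 is known from the retina, where it serves the release of transmitter by photoreceptors. Lrtm2 encodes a membrane protein with leucine-rich repeats.

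Reads in named genes came to 45189860 to 56126407 per library. Ogg1Tg replicate 3 stood apart: its Spearman correlation with the other libraries across genes was 0.946 to 0.953, against 0.975 to 0.983 among those 5. The summed level of 10 lymphocyte markers was 253, 217 and 14543 scaled reads in Ogg1Tg replicates 1, 2 and 3, against 219 to 324 in Control libraries. The muscle genes Ckm, Acta1, Myh4 and Mylpf were high in every library, with Ckm at 169389 to 289698 in Ogg1Tg and 223858 to 266205 in Control muscle. Mouse Ogg1 measured 176, 201 and 193 in Ogg1Tg and 154, 225 and 193 in Control libraries, and does not measure the human transgene. Values are reads divided by 1 factor per library, called scaled reads below. Fold changes are Ogg1Tg minus Control on the log2(value + 1) scale, which understates the change of low genes, with the standard error (SE) of the limma fit.

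Cacna2d4 lies on chromosome 6 from 119236526 to 119352407 on the plus strand in GENCODE M21 (GRCm38, also called mm10), with 10 annotated transcripts. Lrtm2 lies inside it, from 119315133 to 119330766 on the minus strand, with 4 transcripts. The whole of Lrtm2 falls in a stretch of 18265 bases, from 119312504 to 119330768, that holds no exon of Cacna2d4. The exons of Cacna2d4 cover 9478 bases and those of Lrtm2 4102 bases, and they share 0. A transcript of Cacna2d4 starts at 119330769, 3 bases from the first base of Lrtm2, and runs the other way. That transcript has no coding sequence, and the start of Cacna2d4 itself lies 94240 bases from the first base of Lrtm2. The sources used here name neither the annotation nor the strand setting of the counting. Without strand, unspliced reads from the intron of Cacna2d4 that cover an exon of Lrtm2 cannot be told apart from reads of Lrtm2.

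**Figure D1:**
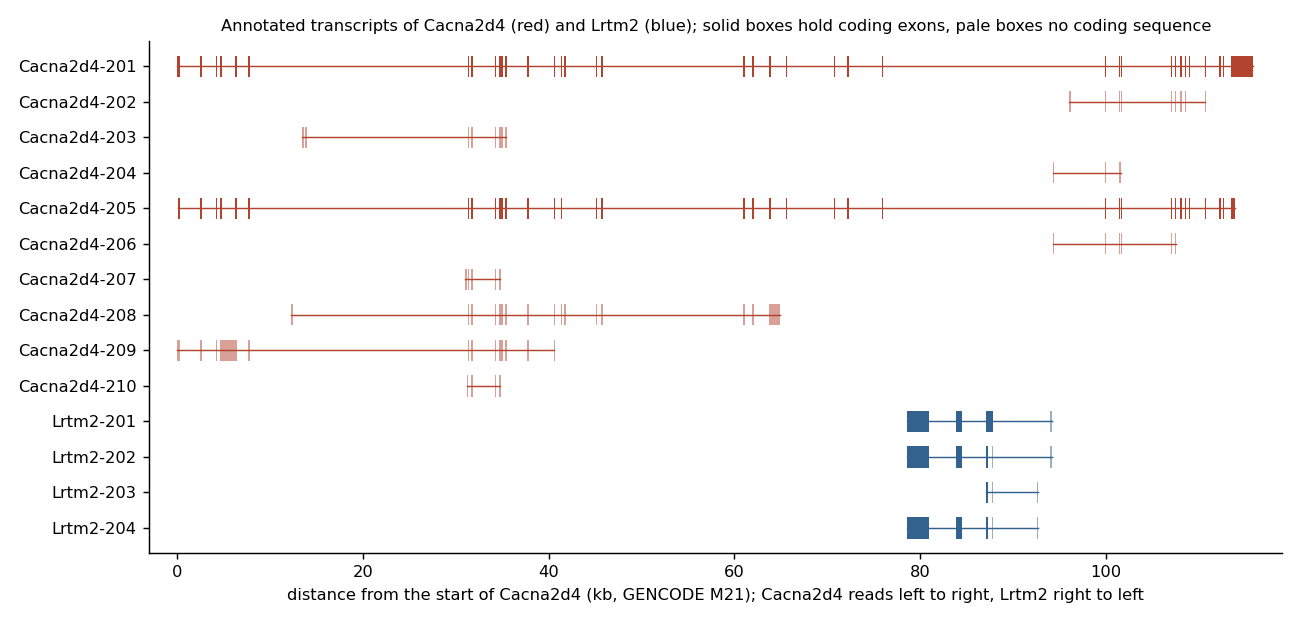
Annotated transcripts of Cacna2d4 and Lrtm2 by distance from the start of Cacna2d4 in kb, each on a row of its own, with boxes for exons. Lrtm2 sits in a stretch with no Cacna2d4 exon, and the exons of the genes share 0 bases.

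The stretches upstream of the start sites of Lrtm2 are shown because Lrtm2 is a gene of the pair with promoter entries; they are not the main start of Cacna2d4. They are taken from the RefSeq promoter table (GRCm38.p6), which matched 6 of the 8 genes; Cacna2d4 and Cacng1 are not among them. Capitals mark CAGCTG, the E-box form bound by muscle transcription factors of the MyoD family, which reads the same on both strands. Each run is the 250 bases before a start site, 5′ to 3′ on the minus strand, from chr6:119330767-119331016 for the outer start and chr6:119329205-119329454 for the inner start. The outer run holds the base at 119330769 where the non-coding transcript of Cacna2d4 begins.
Lrtm2 outer start: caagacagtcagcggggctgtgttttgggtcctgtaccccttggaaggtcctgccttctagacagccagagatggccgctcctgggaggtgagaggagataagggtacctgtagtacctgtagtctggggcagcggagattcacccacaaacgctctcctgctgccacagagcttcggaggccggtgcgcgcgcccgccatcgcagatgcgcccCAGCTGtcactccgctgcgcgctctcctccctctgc
Lrtm2 inner start: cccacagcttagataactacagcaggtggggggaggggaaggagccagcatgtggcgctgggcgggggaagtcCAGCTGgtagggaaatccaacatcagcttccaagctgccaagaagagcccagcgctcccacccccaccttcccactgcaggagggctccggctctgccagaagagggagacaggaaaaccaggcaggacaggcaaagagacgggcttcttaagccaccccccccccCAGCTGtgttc

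The outer run holds 1 CAGCTG, whose first base is 36 bases before the start site, and the inner run holds 2, at 177 and 11 bases. In the same window 13.0% of 32851 mouse promoters hold CAGCTG. The TATA box TATAAA, the CCAAT box and the ATF4-type element TGATGNAA had no match on either strand in either run, against 12.4%, 33.8% and 3.45% of all promoters. The GC box GGGCGG had 1 match, in the inner run at 191 bases, without overlap with CAGCTG, and is found in 32.7% of all promoters. Among the other members with a promoter, only Cacna2d3 held CAGCTG, with 1 match.

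Cacna2d4 had 9.997, 14.6 and 58.3 scaled reads in Ogg1Tg replicates 1, 2 and 3, against 579.7, 379 and 428 in Control replicates 1, 2 and 3. All 3 Ogg1Tg libraries were far below all 3 Control libraries, and Ogg1Tg replicate 3 was the highest of its group. The means were 27.6 ± 26.7 in Ogg1Tg and 462 ± 105 in Control muscle (SD, n = 3 each), and the log2 fold change was -4.40 ± 0.56 (SE), 21.1-fold lower on that scale. By the ratio of the means Ogg1Tg was 16.7-fold lower, and without Ogg1Tg replicate 3 the log2 fold change was -5.12. In bulk muscle, fewer cells that express a gene and less of its RNA per cell cannot be told apart.

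Lrtm2 had 6.66, 17.2 and 3.02 scaled reads in Ogg1Tg libraries, against 151, 172 and 120.1 in Control libraries. Here too the groups did not overlap, and Ogg1Tg replicate 3 was the lowest library rather than the highest of its group. The means were 8.96 ± 7.36 in Ogg1Tg and 148 ± 26.2 in Control muscle (SD, n = 3 each). Its log2 fold change was -4.16 ± 0.55 (SE), 17.9-fold lower. Of 23312 genes fitted, Cacna2d4 and Lrtm2 ranked 2 and 3 from the lowest log2 fold change, a rank that follows from how they were chosen.

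Of the 8 members, all of which passed the filter on low values (a mean of at least 1), 2 were called lower at a limma adjusted p under 0.05 and 6 were not called. Over all 23312 genes, 0.545% were called, with 0.15% lower and 0.395% higher in Ogg1Tg muscle. The same 2 members were the ones whose groups did not overlap, against 11.3% of all genes that lay lower in Ogg1Tg without overlap. The contrast chose the members, so nothing is read from these counts. The median log2 fold change was -0.03 over the 8 members, 0.13 over the other 6, and -0.02 over all genes fitted. Neither Cacna2d4 nor Lrtm2 was called when any 1 of the 3 Control libraries was left out, with log2 fold changes between -4.53 and -4.22 for Cacna2d4 and between -4.30 and -4.04 for Lrtm2. Lrtm2 was also not called without Ogg1Tg replicate 1, at -4.11.

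**Figure D2:**
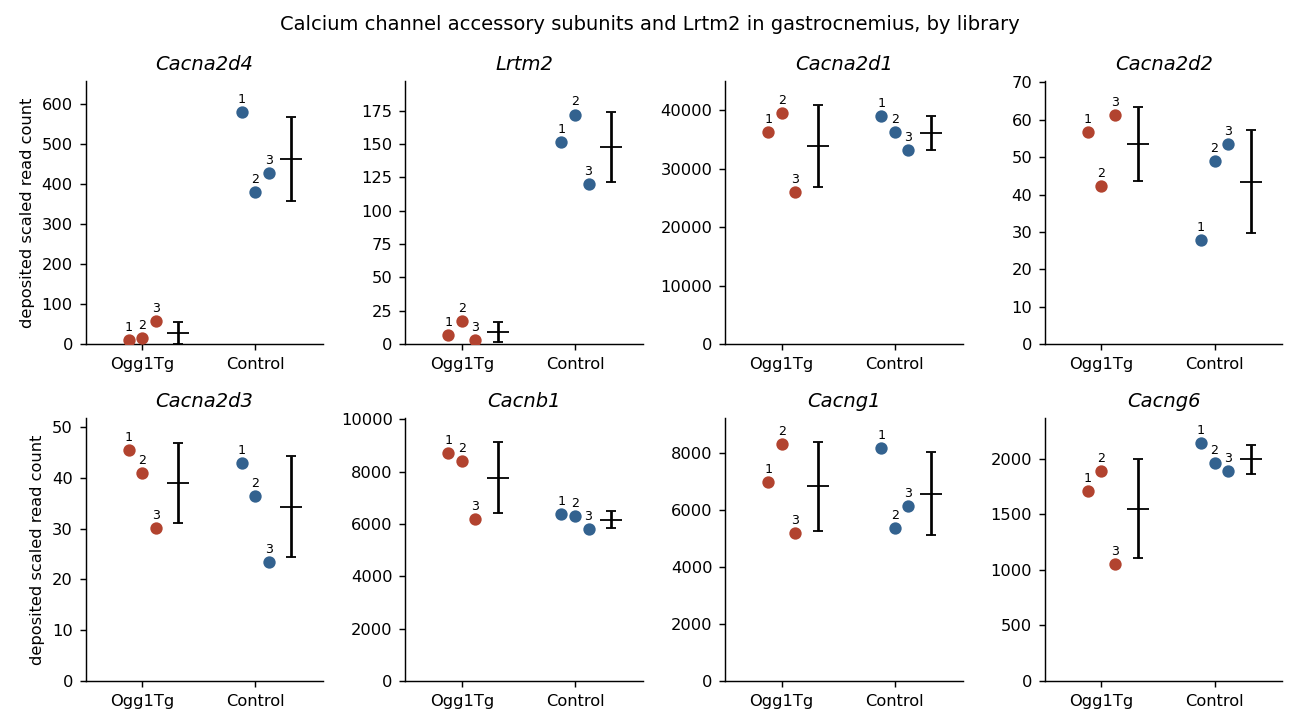
Scaled reads of the 8 genes in each library (points), with the mean and SD of each group, Ogg1Tg left and Control right. Cacna2d4 (9.997 to 58.3 against 379 to 579.7) and Lrtm2 (3.02 to 17.2 against 120.1 to 172) separate by group, and the other 6 genes overlap.

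As unscaled reads, Cacna2d4 had 9, 11 and 58 in Ogg1Tg libraries and 418, 271 and 328 in Control libraries. Lrtm2 had 6, 13 and 3 reads in Ogg1Tg libraries and 109, 123 and 92 in Control libraries. Lrtm2 therefore held 40.0%, 54.2% and 4.92% of the reads of both genes in Ogg1Tg muscle, against 20.7%, 31.2% and 21.9% in Control muscle. The share in Ogg1Tg replicate 3 was the lowest of the 6 and those in replicates 1 and 2 the highest. Exact 95% Clopper-Pearson intervals, which cover counting error only, ran from 16.3% to 67.7%, from 32.8% to 74.4% and from 1.03% to 13.7% in the Ogg1Tg libraries and from 17.3% to 24.4%, from 26.7% to 36.05% and from 18.04% to 26.2% in the Control libraries. The interval of Ogg1Tg replicate 3 lay below every Control interval. Pooled over each group, the share was 22.0% of 100 reads in Ogg1Tg and 24.2% of 1341 reads in Control muscle. Ogg1Tg replicate 3 gave 61 of those 100 reads, so the pooled share describes no single Ogg1Tg library.

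**Figure D3:**
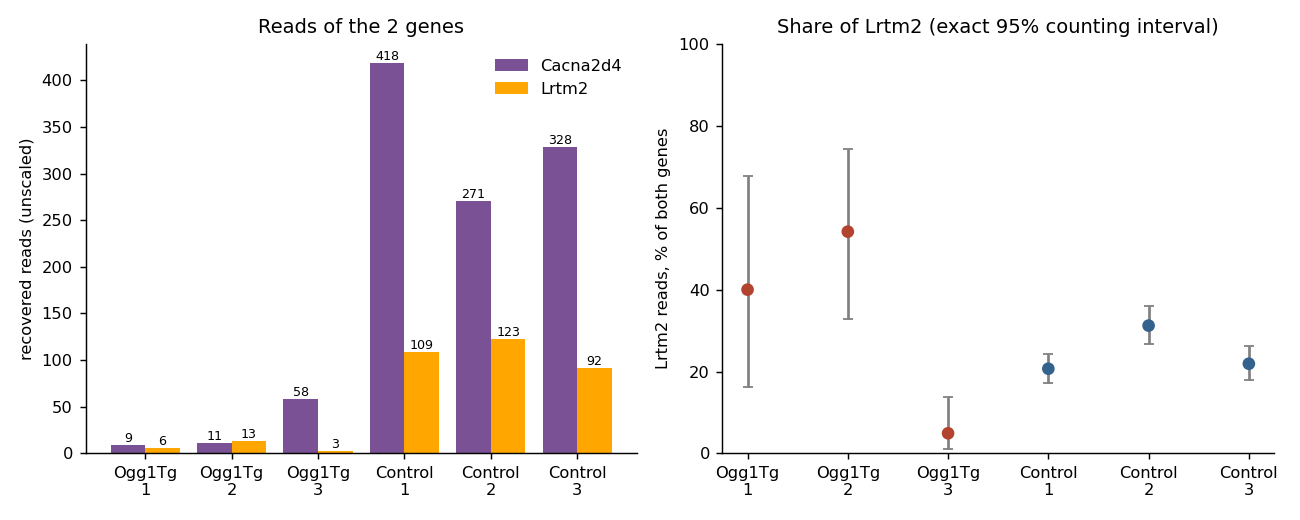
Unscaled reads of Cacna2d4 and Lrtm2 in each library, and the share of Lrtm2 in the reads of both genes with its exact 95% counting interval. The share was 4.92% in Ogg1Tg replicate 3 and 20.7% to 54.2% in the other 5 libraries.

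Cacna2d1, the alpha2delta subunit of the muscle voltage sensor and a binding site of gabapentin, was the abundant member of its family. It had 36277, 39519 and 26127 scaled reads in Ogg1Tg libraries, against 39015, 36251 and 33154 in Control libraries. The groups overlapped, with Ogg1Tg replicate 3 the lowest library and Ogg1Tg replicate 2 the highest. The log2 fold change was -0.11 ± 0.20 (SE), and 0.07 without Ogg1Tg replicate 3.

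Cacna2d2, which is prominent in the cerebellum, had 56.7, 42.3 and 61.4 in Ogg1Tg and 27.7, 48.96 and 53.5 in Control libraries, in scaled reads. Cacna2d3, a brain form, had 45.5, 41.01 and 30.2 in Ogg1Tg and 42.99, 36.4 and 23.5 in Control libraries. Both genes overlapped between the groups. Their log2 fold changes were 0.33 ± 0.37 and 0.20 ± 0.39 (SE). These values rest on 20 to 61 reads of Cacna2d2 and 18 to 41 reads of Cacna2d3 per library.

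Per kilobase of exon, Cacna2d1 made up 99.5, 99.6 and 99.2% of the summed alpha2delta level in Ogg1Tg and 97.8, 98.3 and 98.0% in Control libraries. Cacna2d4 made up 0.0359, 0.0481 and 0.290% of that sum in Ogg1Tg libraries, against 1.90, 1.35 and 1.66% in Control libraries. In Control muscle Cacna2d4 was thus next after Cacna2d1 in its family, with 48.8 ± 11.03 scaled reads per kilobase, against 5.46 ± 1.73 for Cacna2d2 and 3.93 ± 1.14 for Cacna2d3 (SD, n = 3). In Ogg1Tg muscle it stood at 2.92 ± 2.82 per kilobase, against 6.73 ± 1.25 for Cacna2d2 and 4.46 ± 0.905 for Cacna2d3. Its Ogg1Tg libraries, at 1.05 to 6.16 per kilobase, spanned the range of Cacna2d3, at 3.46 to 5.22.

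Cacnb1, the beta subunit that brings the pore of the voltage sensor to the membrane, had 8733, 8394 and 6201 scaled reads in Ogg1Tg libraries, against 6367, 6319.7 and 5791 in Control libraries. Ogg1Tg replicates 1 and 2 were above every Control library, and Ogg1Tg replicate 3 lay inside the Control range. The means were 7776 ± 1374 in Ogg1Tg and 6159 ± 319.5 in Control muscle (SD, n = 3 each), with a log2 fold change of 0.32 ± 0.16 (SE). It was called higher in 2 of the 15 alternative fits, at 0.48 without Ogg1Tg replicate 3 and at 0.50 with quantile normalization. Those fits called 425 and 168 of all genes, against 127 in the main fit. The contrast chose the members, so nothing is read from these calls.

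Cacng1, the gamma subunit of the skeletal muscle channel, had 6984, 8332 and 5214 in Ogg1Tg and 8199.9, 5376 and 6150.2 in Control libraries, in scaled reads. The groups covered nearly the same range, and the log2 fold change was 0.05 ± 0.21 (SE). Cacng6, its closest relative in the gamma family, had 1713, 1893 and 1053 in Ogg1Tg and 2141, 1964 and 1889 in Control libraries. Ogg1Tg replicate 2 lay just above the lowest Control library, and the other Ogg1Tg libraries below it. The log2 fold change of Cacng6 was -0.41 ± 0.21 (SE), and -0.15 without Ogg1Tg replicate 3.

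In Control muscle the order of levels per kilobase was Cacng1 (5264 ± 1168), Cacna2d1 (2911 ± 236), Cacnb1 (1359.9 ± 70.5), Cacng6 (1011 ± 65.6), Cacna2d4, Lrtm2 (36.02 ± 6.38), Cacna2d2 and Cacna2d3 (SD, n = 3 each). Cacna2d4, at 39.99 to 61.2, and Lrtm2, at 29.3 to 41.9, overlapped, as did Cacna2d2 and Cacna2d3. In Ogg1Tg muscle the first 4 had the same order, at 5479 ± 1252, 2736 ± 563, 1717 ± 303 and 786 ± 224. By their means, Cacna2d2, Cacna2d3, Cacna2d4 and Lrtm2 (2.18 ± 1.80) followed, and of these neighbours Cacna2d3 overlapped with Cacna2d4 and Cacna2d4 with Lrtm2. Lrtm2 stood above Cacna2d4 in Ogg1Tg replicates 1 (1.62 against 1.05) and 2 (4.19 against 1.54). Only in Ogg1Tg replicate 3 was it below (0.736 against 6.16). The order of Cacna2d2 and Cacna2d3 depended on the length used. By the longest transcript Cacna2d3 stood above Cacna2d2, at 9.28 against 7.47 in Control and 10.5 against 9.20 in Ogg1Tg muscle, with overlap. The pore gene Cacna1s stood at 9334 ± 2482 per kilobase in Ogg1Tg and 11253 ± 565 in Control muscle.

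**Figure D4:**
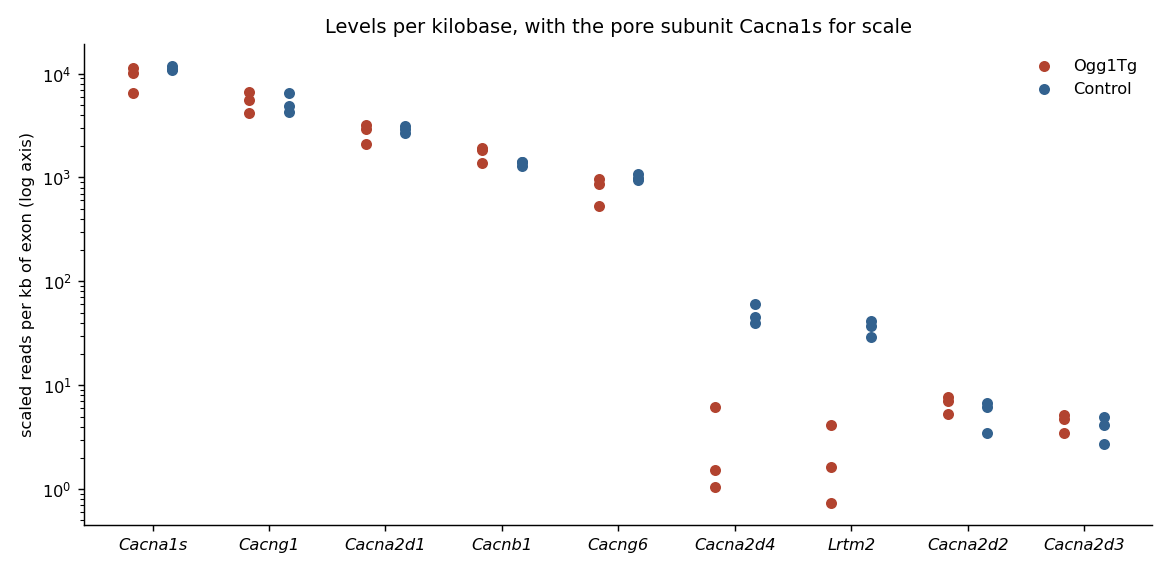
Scaled reads per kilobase of exon on a log axis, Ogg1Tg left of Control for each gene. Cacng1, Cacna2d1, Cacnb1 and Cacng6 lie between 533 and 6671 in all libraries, and Cacna2d4 and Lrtm2 at 0.736 to 6.16 in Ogg1Tg and at 29.3 to 61.2 in Control muscle.

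Against Cacna1s in the same library, Cacnb1 had a ratio of levels per kilobase of 0.190, 0.164 and 0.209 in Ogg1Tg libraries, and of 0.119, 0.125 and 0.119 in Control libraries. These ratios did not overlap, and Ogg1Tg replicate 3 had the highest. Cacna2d1 had ratios of 0.288, 0.281 and 0.321 in Ogg1Tg and 0.265, 0.261 and 0.249 in Control libraries, also without overlap. Cacng6 had ratios of 0.0855, 0.0846 and 0.0813 in Ogg1Tg, all below the 0.0913, 0.0890 and 0.0890 of the Control libraries. The ratio of Cacng1 overlapped, at 0.552, 0.590 and 0.637 in Ogg1Tg and 0.554, 0.385 and 0.459 in Control libraries. Over all genes set against Cacna1s in this way, 15.1% lay higher and 3.56% lower in Ogg1Tg muscle without overlap. The ratios rest on the contrast that chose the members and share 1 denominator, and no test was made on them.

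None of the 10 pore genes passed limma in either direction, with a median log2 fold change of -0.02. The count at an unadjusted p under 0.05 was 0, against 11% of all genes, and edgeR and DESeq2 also called 0. Cacna1s, the voltage sensor, had 66404, 74110.4 and 42903 in Ogg1Tg and 77657, 73137 and 70325 in Control libraries (log2 fold change -0.31 ± 0.26, limma adjusted p = 0.70). Ogg1Tg replicate 3 was far below the other libraries. Cacna1c, the pore of the cardiac channel, had 344, 474 and 406 in Ogg1Tg and 358, 504 and 508 in Control libraries (limma adjusted p = 0.79). Cacna1f, the pore of the photoreceptor channel, was at 0 in 4 of the 6 libraries. Cacna1i, Cacna1e and Cacna1b, pores best known from neurons, stood apart in Ogg1Tg replicate 3, with 624, 381 and 133. Their highest values in any other library were 45.7, 36.5 and 16.97.

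Of the 10 other accessory genes, 7 passed the filter on low values, and limma called 0 of them (median log2 fold change -0.22). At an unadjusted p under 0.05 there were 2, Cacng7 and Cachd1, against 11% of all genes, and edgeR and DESeq2 called 0. The same 2 lay lower in Ogg1Tg without overlap, against 11.3% of all genes. Cacng7, a gamma gene of the family that holds AMPA receptor regulators, had 363, 679.97 and 179 in Ogg1Tg and 1019, 923 and 911 in Control libraries. The groups did not overlap, with all Ogg1Tg libraries lower (log2 fold change -1.42 ± 0.39, limma adjusted p = 0.22). The adjusted p of Cacng7 ran from 0.027 to 0.64 over the 15 alternative fits, and it was called without Ogg1Tg replicate 2, at -1.89. Cachd1, a protein like alpha2delta, had 279.9, 442 and 385 in Ogg1Tg and 529.7, 515 and 492 in Control libraries, again without overlap (log2 fold change -0.50 ± 0.19, limma adjusted p = 0.37). Cacnb3, another beta form, had 87.8, 87.3 and 398 in Ogg1Tg and 81.8, 97.9 and 80.9 in Control libraries, with Ogg1Tg replicate 3 apart from the other 5. Cacng3, Cacng5 and Cacng8 had no more than 3.02 in any library.

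**Figure D5:**
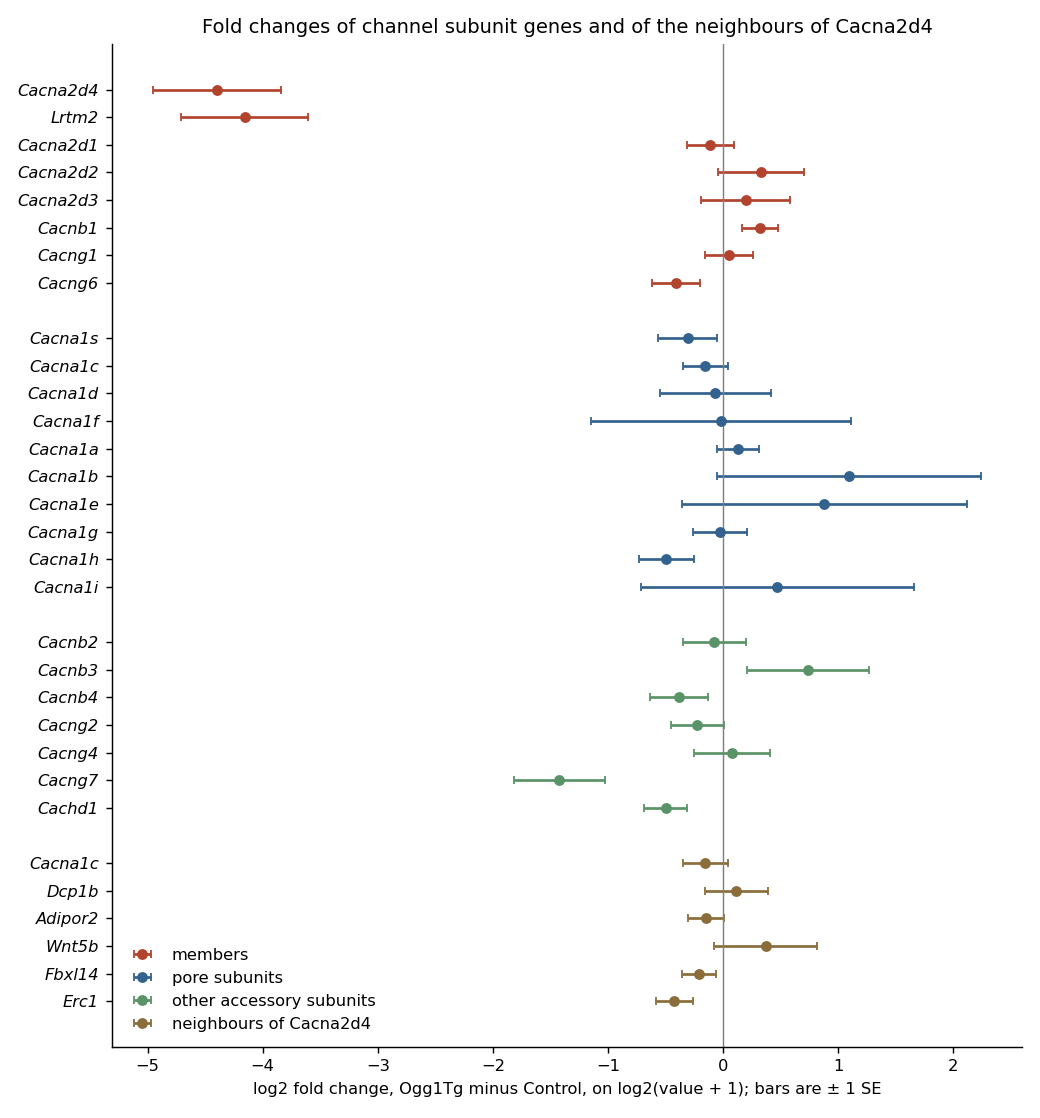
Log2 fold changes, Ogg1Tg minus Control, with bars of 1 SE. Cacna2d4 at -4.40 and Lrtm2 at -4.16 lie apart from the other genes drawn.

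The 15 partners of the voltage sensor at the triad, where the surface membrane meets the calcium store, were 12 below and 3 above 0. Their median log2 fold change was -0.24; leaving out Ogg1Tg replicate 3 it was -0.01. The median over all genes fitted was -0.02. Limma, edgeR and DESeq2 called 0 of the 15, with 2 at an unadjusted limma p under 0.05, against 11% of all genes. Ryr1, the calcium release channel, had 512378, 614754 and 343164 in Ogg1Tg and 542998, 495075 and 469061 in Control libraries (limma adjusted p = 0.97). Trdn, triadin, had 64680.0, 81425 and 46753 in Ogg1Tg and 95460.4, 74969 and 74508 in Control libraries (limma adjusted p = 0.65). For both genes Ogg1Tg replicate 3 was the lowest library and the groups overlapped.

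Of 5 leucine-rich repeat genes related to Lrtm2 in name, 3 passed the filter, and limma, edgeR and DESeq2 called 0. At an unadjusted p under 0.05 there was 1, against 11% of all genes. That gene, Lrtm1, is placed like Lrtm2: it lies inside another alpha2delta gene, Cacna2d3, on chromosome 14 from 29018208 to 29033645 on the plus strand, with Cacna2d3 on the minus strand. Their exons share 0 bases. Lrtm1 had 1009, 1994 and 661 in Ogg1Tg and 2147, 1955 and 2119.7 in Control libraries. Ogg1Tg replicate 2 lay inside the Control range, and the other Ogg1Tg libraries below it (log2 fold change -0.91 ± 0.33, limma adjusted p = 0.35). It was called without Ogg1Tg replicate 2, at -1.34, and its limma, edgeR or DESeq2 adjusted p ran from 0.024 to 0.72 over the 15 alternative fits. Lrtm1 held 95.7%, 97.98% and 95.6% of the reads of Lrtm1 and Cacna2d3 in Ogg1Tg and 98.04%, 98.2% and 98.9% in Control libraries, so here the inner gene held most of the reads. Per kilobase, Lrtm1 stood at 154 ± 87.1 in Ogg1Tg and 261 ± 13.03 in Control muscle (SD, n = 3 each). Lrrtm3 had 234, 370.4 and 173 in Ogg1Tg and 347, 194 and 238 in Control libraries (limma adjusted p = 0.98).

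Within 500 kb of Cacna2d4 the annotation holds 6 tested protein-coding genes besides Lrtm2, and limma called 0 of them (median log2 fold change -0.15). At an unadjusted p under 0.05 there was 1, Erc1, against 11% of all genes, and edgeR and DESeq2 called 0. Dcp1b, a decapping factor 14910 bases before Cacna2d4, had 329.9, 279 and 503 in Ogg1Tg and 239, 390.3 and 389 in Control libraries (limma adjusted p = 0.90). Adipor2, an adiponectin receptor 743 bases after Cacna2d4 on the other strand, had 5824, 6923 and 4761 in Ogg1Tg and 6749, 6145 and 6292 in Control libraries (limma adjusted p = 0.75). Both overlapped between the groups, as did Cacna1c, given above. Wnt5b, a secreted signal, had 127, 70.1 and 71.4 in Ogg1Tg and 33.3, 101 and 86.1 in Control libraries, with overlap (limma adjusted p = 0.78). Fbxl14, an F-box gene, had 685, 897 and 915 in Ogg1Tg and 940.2, 955 and 966 in Control libraries, without overlap (limma adjusted p = 0.64). Erc1, a scaffold of release sites, had 4045, 4281 and 2875 in Ogg1Tg and 4983, 4882 and 4934 in Control libraries, also without overlap (log2 fold change -0.42 ± 0.16, limma adjusted p = 0.38). Of the 6 neighbours, 2 thus lay lower in Ogg1Tg without overlap, against 11.3% of all genes. The log2 fold changes of the 6 neighbours lay between -0.42 and 0.37. Mouse Ogg1 lies on the same chromosome, 5.9 Mb before Cacna2d4.

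The genes most like Cacna2d4 across the 6 libraries, by Pearson correlation of log2(value + 1), were Brwd1 (0.996), Slc4a10 (0.995), Rnf5 (0.99), Ermp1 (0.989), Gnas (0.989) and Cd46 (0.988). For Lrtm2 they were Tshz1 (0.997), Acsl3 (0.997), Htra4 (0.997), Irx3 (0.996), Cd24a (0.995) and Ift74 (0.995). Cacna2d4 and Lrtm2 correlated with each other at 0.84. The points are libraries of 2 groups, so the values mainly repeat the distance between the groups, and no p is given. All 12 genes were lower in every Ogg1Tg library than in every Control library, by amounts that differed widely. Slc4a10, a bicarbonate transporter, had 14.4, 18.5 and 36.2 in Ogg1Tg and 209, 190.2 and 171 in Control libraries. Like Cacna2d4 it was highest within its group in Ogg1Tg replicate 3 and Control replicate 1. Brwd1 had 7677, 7683 and 8030.1 in Ogg1Tg and 8832, 8646 and 8737 in Control libraries, a far smaller difference. Htra4, a serine protease, had 27.8, 58.2 and 23.1 in Ogg1Tg and 201, 243 and 187 in Control libraries, and like Lrtm2 was highest in replicate 2 of each group. Of the 12, limma called Slc4a10 for Cacna2d4, and Acsl3, Htra4, Irx3 and Cd24a for Lrtm2, where 0.15% of all genes were called lower. The 12 were picked for likeness to genes that differ by group. Nothing is therefore read from these calls or from the lack of overlap.

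Markers of other cells were read beside the members. Of 12 photoreceptor genes, 10 passed the filter, and limma, edgeR and DESeq2 called 0, with 0 at an unadjusted p under 0.05. Their summed level was 1889 to 2383 scaled reads in Ogg1Tg and 1904 to 2365 in Control libraries. Most of it came from Sag, an arrestin, at 1652 to 2050.0 in Ogg1Tg and 1675 to 2080.0 in Control libraries. Pclo, a scaffold of release sites, had 117 to 230.2 in Ogg1Tg and 144 to 164 in Control libraries. Nrl and Gnat1, which define rods, were at 0 in 5 of 6 libraries. Of 8 neuron markers, 6 passed the filter, and the same tools called 0, with 0 at an unadjusted p under 0.05. The neuron sum was 118 to 183 in Ogg1Tg and 123 to 204 in Control libraries, most of it Stmn2, with Nefh at 2.22 to 34.2 in Ogg1Tg and 2.80 to 9.14 in Control libraries. Snap25 and Nefl were at 0 in 4 and 5 of the 6 libraries. The sum of 8 Schwann cell markers, among them the myelin gene Pmp22, was 4431 to 8729.8 in Ogg1Tg and 6082 to 6993 in Control libraries. The tools called 0 of these as well, with 0 at an unadjusted p under 0.05.

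The sum of 8 slow fibre markers was 115751, 151499 and 95737 in Ogg1Tg and 34239, 77140.0 and 88479 in Control libraries. Their median log2 fold change was 0.99, all 8 were above 0, and 5 lay higher without overlap, against 7.03% of all genes. Limma and edgeR called 0, with 5 at an unadjusted p under 0.05, against 11% of all genes. DESeq2 called 3, Myh7, Tnni1 and Tpm3. Myh7, the slow myosin, had 57593, 79545 and 50855 in Ogg1Tg and 10585, 35642 and 35632 in Control libraries (limma adjusted p = 0.30). Atp2a2, the slow calcium pump, had 23653, 27401 and 16054 in Ogg1Tg and 12195, 18623 and 24518 in Control libraries (limma adjusted p = 0.73). The 10 fast fibre markers had a median of -0.39; leaving out Ogg1Tg replicate 3 it was -0.13. Limma, edgeR and DESeq2 called 0 of them, with 0 at an unadjusted p under 0.05, and the fast myosin Myh4 and calcium pump Atp2a1 had limma adjusted p = 0.94 and 0.93. Of 10 genes known to rise in denervated muscle, limma called 1, Gadd45a, a stress and growth arrest gene, with 2039, 1149.6 and 2559 in Ogg1Tg and 251, 255 and 226 in Control libraries (log2 fold change 2.90 ± 0.26, adjusted p = 0.0017). Of the 10, 5 lay higher without overlap, against 7.03% of all genes. At an unadjusted p under 0.05 there were 4, against 11% of all genes, and the median log2 fold change was 0.56. Of the 10, 3 were below 0 in the limma fit, Chrng at -0.534, Musk at -0.194 and Chrnd at -0.015. Chrna1, at 0.116, and Chrnb1, at 0.404, were above 0. The groups overlapped for each of these 5 genes, and Chrng rests on 0 to 5 reads per library. The list thus did not rise as a whole. DESeq2 called 4, Gadd45a, Myog, Runx1 and Ncam1. Myog, a myogenic transcription factor, had 193, 165 and 173 in Ogg1Tg and 59.6, 111 and 102 in Control libraries. Runx1, a transcription factor, had 911, 733 and 1199 in Ogg1Tg and 392, 415 and 619.98 in Control libraries. Ncam1, a cell adhesion molecule, had 608, 569 and 519 in Ogg1Tg and 273, 373 and 398 in Control libraries. Each of these 3 was higher in every Ogg1Tg library than in every Control library, with limma adjusted p = 0.22, 0.15 and 0.18. Gadd45a was called in 14 of the 15 alternative fits, and not without a variance trend (adjusted p = 0.059). The part of fibre type and of these genes in the levels of Cacna2d4 and Lrtm2 was not tested.

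The blood and fat markers stood apart in Ogg1Tg replicate 3 rather than in the group. Limma, edgeR and DESeq2 called 0 of 10 lymphocyte markers, with 2 at an unadjusted p under 0.05, against 11% of all genes. Ptprc, the common leukocyte antigen, had 154, 135 and 6300.0 in Ogg1Tg and 187, 173 and 243 in Control libraries. Cd79a, a part of the B cell receptor, had 16.7, 13.2 and 1749 in Ogg1Tg and 4.16, 13.99 and 7.83 in Control libraries. The same tools called 0 of 7 adipocyte markers, with 0 at an unadjusted p under 0.05. The adipocyte sum, led by Fabp4 and Cfd, was 3515, 3204 and 11309 in Ogg1Tg and 3756 to 4205 in Control libraries. Leaving out Ogg1Tg replicate 3 gave a log2 fold change of -5.12 for Cacna2d4 and -3.64 for Lrtm2.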

How the data were processed

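RNA was sequenced from gastrocnemius of 3 Ogg1Tg and 3 Control mice, with RNeasy extraction and NuGen Ovation Universal libraries, per the labels' protocols. Trimmomatic, SAMtools, HTSeq and mm10 are named in the submitters' processing notes, while aligner, annotation and strand setting are not. The deposited values are a signal: by their steps, gene counts that the authors divided by 1 factor per library, although the files call them FPKM. Within 0.01 of a read, 100% of values came out as whole reads; for Ogg1Tg replicate 3 the step of 1.01 makes this less telling.

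Of 37315 entries, 1824 without a gene name (2.38% to 3.54% of reads) were not used. Genes with a mean of at least 1 were fitted as log2(value + 1) with limma 3.58.1 (R 4.3.3), eBayes with a variance trend, two-sided, with Benjamini-Hochberg adjustment over all 23312 genes and a threshold of 0.05. No p is given for the 8 members. Recovered reads were also tested with edgeR 4.0.16 and DESeq2 1.42.0. Exon lengths are unions over GENCODE M21. No 2 libraries agreed within sampling noise (smallest chi-square per gene 13.9). The labels do not name separate litters, so p-values measure the spread between these 6 samples. The fit was tested on simulated data.

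The members, gene lists and tests were chosen with earlier results of these data known. Named genes are the 8 members, up to 4 called genes per list or else the 2 most abundant, the neighbours within 500 kb, the 6 genes most correlated with Cacna2d4 and with Lrtm2, and Ogg1. Other genes named were chosen after their values were seen: Cacna1f, Cacna1i, Cacna1e, Cacna1b, Cacnb3, Cacng3, Cacng5, Cacng8, Nrl, Gnat1, Snap25, Nefl, Tnni1, Tpm3, Myog, Runx1, Ncam1, Chrng, Chrnd, Musk, Chrna1 and Chrnb1. Some genes that belong to the lists are not reported here.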

Additional observations from a re-analysis of the deposited data

How the results depend on the processing

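Under the alternatives tried, the log2 fold change stayed negative for Cacna2d4 (-4.47 to -3.92, and -5.12 to -3.91 with 1 library left out) and for Lrtm2 (-4.36 to -4.001, and -4.73 to -3.64). Cacna2d4 was called in 7 of 9 other settings (not with edgeR or without a variance trend) and 3 of 6 fits with 1 library left out. Lrtm2 was called in 8 of 9 (not without a variance trend) and 2 of 6. The contrast chose these 2 genes, so nothing is read from how often they were called. The sign of Cacna2d1, Cacna2d3 and Cacng1, none of them called, changed in some fits, with ranges of -0.23 to 0.15, -0.04 to 0.38 and -0.10 to 0.24. The total of 127 called genes was 622 with DESeq2 and 46 without a variance trend, and 35 to 425 with 1 library left out. DESeq2 called 3 slow fibre and 4 denervation markers, and 0 denervation markers were called without a variance trend. With 1 library left out, the other accessory subunits and the leucine-rich repeat relatives each had 0 to 1 called genes. The causes were not tested. Libraries with the same number in their titles did not deviate together (correlations of same-numbered deviations -0.05 to 0.03). These correlations cannot show whether the mice were paired. The replicate block gave 102 called genes, Cacna2d4 and Lrtm2 among them at -4.40 and -4.16. Lengths without shared exon bases were the same, since 0 are shared, and with the longest transcript Cacna2d4 had 79.7 scaled reads per kilobase in Control muscle.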
